A study of Homo sapiens with 6 samples.

Results

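The 10 genes described here encode heat shock proteins of the cytosol and of the mitochondrial matrix in 22Rv1 cells, a prostate carcinoma epithelial cell line. They were listed by symbol (HSPA8, HSPA1A, HSPA1B, DNAJB1, HSPH1, HSP90AA1, HSP90AB1, HSPB1, HSPD1 and HSPE1) and not by a threshold on their values, but earlier results of these data were known when the list was made. All 10 were found among the 29804 symbols of the count table, and all 10 were among the 14672 genes that passed the filter on low counts and were tested. RNA was sequenced from 3 groups with 2 libraries in each. WT cells were the untreated starting population, taken at week 0. AM (age matched) cells were grown without drug until week 6, in parallel with the treated cells. 6WP cells received 1 µg/ml of phleomycin, a radiomimetic agent that breaks DNA, every week day for 6 weeks, so their RNA comes from cells that survived repeated dosing. All groups share the cell line and the medium, RPMI with serum and antibiotics. The labels call the libraries biological replicates, but nothing says how the cultures were separated, so the p-values measure the spread between these libraries, which may be partly technical.

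Heat shock proteins are molecular chaperones that keep other proteins folded and soluble. Their genes are known for induction by heat shock factor HSF1, which binds repeats of the unit GAA, in alternating orientation, in their promoters. In the cytosol, Hsp40 proteins deliver unfolded clients to Hsp70, Hsp110 proteins exchange the nucleotide that Hsp70 has used, and some clients pass on to Hsp90. Small heat shock proteins hold unfolding proteins without using ATP, and in the mitochondrial matrix Hsp60 and its lid Hsp10 form a folding chamber. Hsp90 is known in prostate cells for keeping the androgen receptor able to bind hormone.

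The binding repeats of HSF1 are the sequence feature that the 10 genes could share, so the promoters were searched for them before the expression values are given. A pair was counted where the letters GAANNTTC or TTCNNGAA occurred, and a triple where 3 units alternated in this way with 2 bases between them. Both strands are covered because each unit is the reverse complement of the other, and overlapping matches were counted as pairs within a triple. RefSeq promoter windows on GRCh38.p14, of 300 bases each (250 before and 50 after the start), matched all 10 genes. Of the 10 genes, 8 had a pair in at least 1 window, against 16.2% of the 27305 genes with a window. A triple was found for 4 of the 10 genes (HSPA8, HSP90AA1, HSP90AB1 and HSPD1), against 0.608% of all genes. By window, a pair occurred in 9 of 16 windows of these genes and in 13.5% of all 35116 windows. The following stretches are shown because they hold a pair or triple of each gene that has them. Capitals mark the whole match, that is the GAA and TTC units and the 2 bases between them. The bases on either side of the match are in lower case.
HSPA8: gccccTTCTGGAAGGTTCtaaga
HSP90AA1: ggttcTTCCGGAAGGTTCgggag
HSP90AB1: gattgTTCTGGAAGCTTCtggat
HSPD1: gcattTTCTGGAAAGTTCTGGAAccgag
HSPA1A: ccctgGAATATTCccgac
HSPA1B: ccctgGAATATTCccgac
DNAJB1: ctctgGAAGCTTCcgccg
HSPB1: cgagaGAAGGTTCcagat
The HSPA8 stretch (chr11:123062174-123062196, minus strand) lay 60 to 38 bases before the start, inside an exon of another annotated HSPA8 transcript. The HSP90AA1 stretch (chr14:102087115-102087137, minus strand) lay 93 to 71 bases before the start. The HSP90AB1 stretch (chr6:44247826-44247848, plus strand) belonged to a start that is not that of the canonical transcript, and it lay 725 bases after the canonical start. The HSPD1 stretch (chr2:197500063-197500090, minus strand) was the longest run, with 4 alternating units. The HSPA1A stretch (chr6:31815432-31815449, plus strand) and the HSPA1B stretch (chr6:31827628-31827645, plus strand) had the same letters. The DNAJB1 stretch (chr19:14518432-14518449, minus strand) lay 52 to 35 bases before the start, and a further pair lay 82 to 65 bases before it. The HSPB1 stretch (chr7:76302486-76302503, plus strand) lay 187 to 170 bases before the start. No pair was found in the windows of HSPH1 and HSPE1. The HSPH1 window starts from a site 484 bases from the canonical start. HSPE1 and HSPD1 are transcribed in opposite directions from starts 539 bases apart, and the run of 4 units printed under HSPD1 ended 289 bases from the HSPE1 start, outside the HSPE1 window. A match is a description of these letters and not a measurement of binding.

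The authors deposited raw counts per gene, which were scaled here to CPM (counts relative to the library total) with edgeR's TMM factors. Total counts lay between 21222201 and 35311945 per library. The 6WP libraries differed more from each other than the libraries of the other groups did. Over genes, the median SD between replicates on the log2 scale was 0.196 in 6WP, 0.0911 in AM and 0.0854 in WT cells. All 11 prostate luminal marker genes examined were above 1 CPM in every library, with summed levels of 3275 to 3436 CPM in WT, 2069 to 2429 in AM and 2652 to 3819 in 6WP cells. In AM against WT cells 6 of the 11 were called lower and 1 higher, and in 6WP against AM cells 4 were called higher and 1 lower, so these markers moved between the groups too and their part in the results was not tested. Of 14 marker genes of blood, endothelial, stromal and basal cells, 2 exceeded 1 CPM in all libraries of a group, the sum of all 14 lay between 5.86 and 11.1 CPM, and between 5 and 7 were at 0 in a group. PTPRC, CD3E and CDH5 were at 0 in every library. In RNA from whole cultures, fewer cells that express a gene and less RNA per cell cannot be told apart.

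All 10 heat shock protein genes had their lowest mean in 6WP cells. In 7 of them (DNAJB1, HSPH1, HSP90AA1, HSP90AB1, HSPB1, HSPD1 and HSPE1) the mean was highest in AM cells, for HSP90AB1 by a margin that turned sign with upper quartile factors, and in the 3 Hsp70 genes it was highest in WT cells. Together the 10 genes held 1.17% and 1.08% of all counts in WT libraries, 1.18% and 1.12% in AM libraries, and 0.700% and 0.912% in 6WP libraries. The 6WP share was below that of every untreated library, and the 6WP libraries stood further apart than the others. The 6WP replicate 1 was below replicate 2 in 9 of the 10 genes, HSPB1 being the exception.

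**Figure D1:**
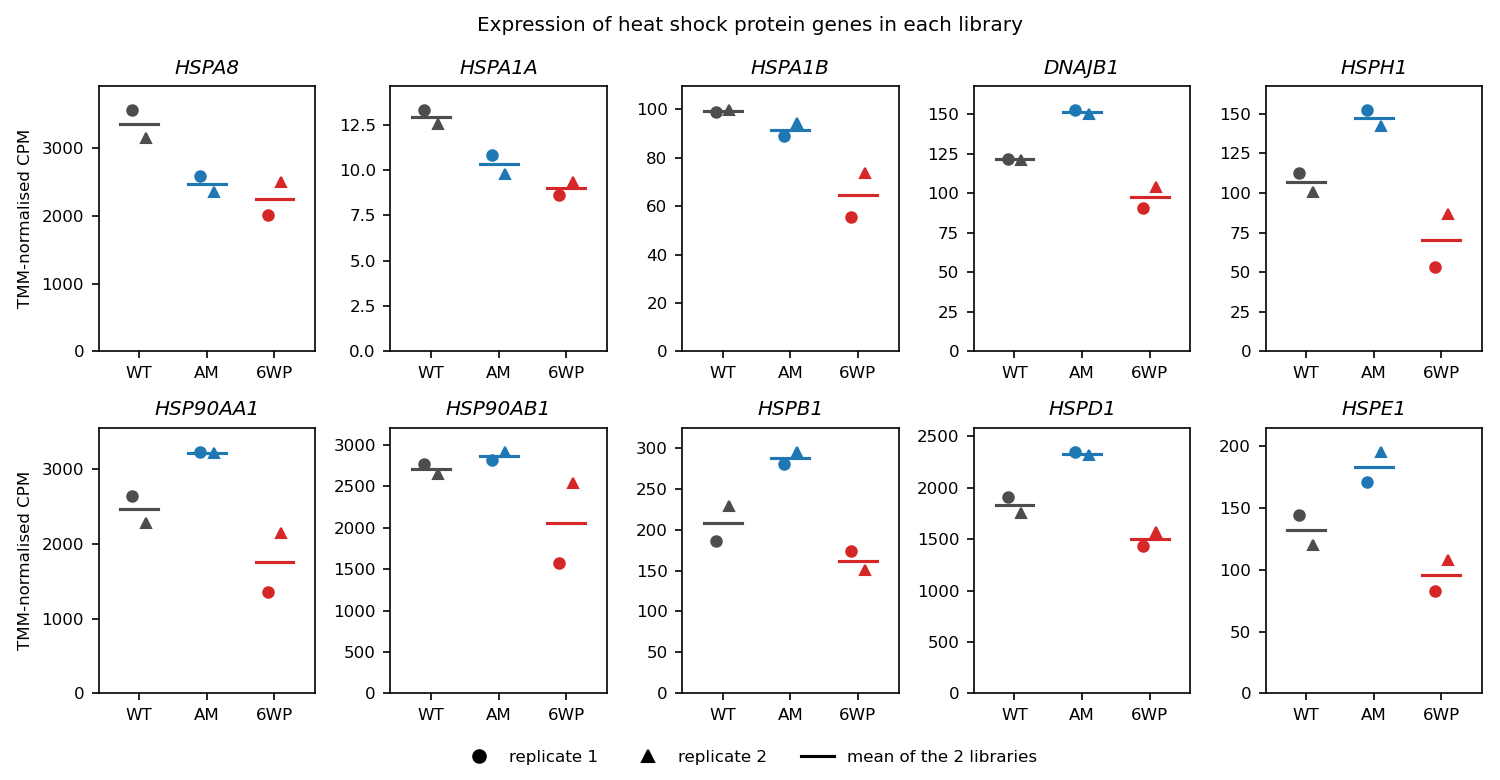
TMM-normalised CPM (vertical axes, starting at 0) of the 10 genes in the WT, AM and 6WP libraries. Circles are replicate 1, triangles replicate 2 and bars the mean of the 2 libraries. In every panel both 6WP libraries lie below both WT libraries, and only in HSPA8 does a 6WP library lie above an AM library.

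Against age-matched cells, the comparison that keeps time in culture the same, 7 of the 10 genes fell in 6WP cells and none rose. edgeR's quasi-likelihood test with Benjamini-Hochberg adjustment over all 14672 genes was used, with a threshold of 0.05. The 7 were HSPA1B, DNAJB1, HSPH1, HSP90AA1, HSPB1, HSPD1 and HSPE1. Of all genes tested, 21.3% were called in this comparison (11.7% higher and 9.68% lower, or 15.5% and 7.24% with upper quartile factors). HSPA8, HSPA1A and HSP90AB1 did not pass. The log2 fold changes of the 10 ran from -1.07 to -0.13 with a median of -0.63, beside a median of 0.05 over all genes tested. The groups did not overlap in 9 of the 10 genes, against 62.3% of all genes. The likelihood ratio test, the Wald test of DESeq2, a replicate block, DESeq2 size factors, library totals and both other filters each gave 7 calls as well. The number was 6 with upper quartile factors, which lost HSPA1B, and 5 with only the 2 groups in the fit or without either WT library, which lost HSPA1B and HSP90AA1, when between 8.51% and 9.07% of all genes were called. The calls rested on both AM libraries. Without AM replicate 1 or without AM replicate 2 none of the 10 passed, and the share of all genes called dropped to 1.18% and 0.775%. None of the 10 changed sign in these fits, but HSPA8 turned to 0.013 without 6WP replicate 1.

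Against WT cells at week 0, none of the 10 genes passed the same test in 6WP cells, although all 10 lay lower. Of all genes, 3.00% were called (1.63% higher and 1.37% lower). The log2 fold changes of the 10 ran from -0.62 to -0.29, with a median of -0.48 beside 0.01 over all genes. In all 10 genes both 6WP libraries were below both WT libraries, where 50.7% of all genes had groups that did not overlap in either direction. At an unadjusted p under 0.05, 9 of the 10 were lower and none higher, against 11.0% lower and 11.3% higher among all genes. The Wald test of DESeq2 called 2 of the 10 as lower (HSPA8 and HSPA1B), and 4.03% of all genes as lower and 3.63% as higher. The likelihood ratio test of edgeR called 3 as lower, adding HSPA1A, and 4.93% of all genes as lower and 5.24% as higher. The number depended on the 6WP libraries. It was 5 without 6WP replicate 1 and 9 without 6WP replicate 2, when 25.2% and 26% of all genes were called, and a lone 6WP library is then assumed to vary like the other groups.

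The change over 6 weeks without drug was read from AM against WT cells. WT cells were taken at week 0 and AM cells at week 6, so time in culture cannot be told apart from handling that differed between those dates. HSPB1 rose and the other 9 genes were not called, beside 17.7% of all genes called (7.74% higher and 9.93% lower, or 4.7% and 12.5% with upper quartile factors). With upper quartile factors or with library totals only, the single call was HSPA8, as lower, in place of HSPB1. The median log2 fold change of the 10 was 0.33, and that of all genes was close to 0. The groups did not overlap in any of the 10 genes, with 7 higher and 3 lower in AM cells, against 73.8% of all genes. At an unadjusted p under 0.05, 4 of the 10 were higher and 1 was lower, beside 17.0% of all genes higher and 18.3% lower. When any of the 4 WT and AM libraries was left out, the median of the 10 lay between 0.31 and 0.33. The number of calls among the 10 then fell to none, and the share of all genes called fell as well. The number rose to 8 without 6WP replicate 1 and to 7 without 6WP replicate 2 or with only the 2 groups in the fit, when between 43.9% and 46.5% of all genes were called. The 3 comparisons share their groups pairwise, so they are not independent of each other.

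**Figure D2:**
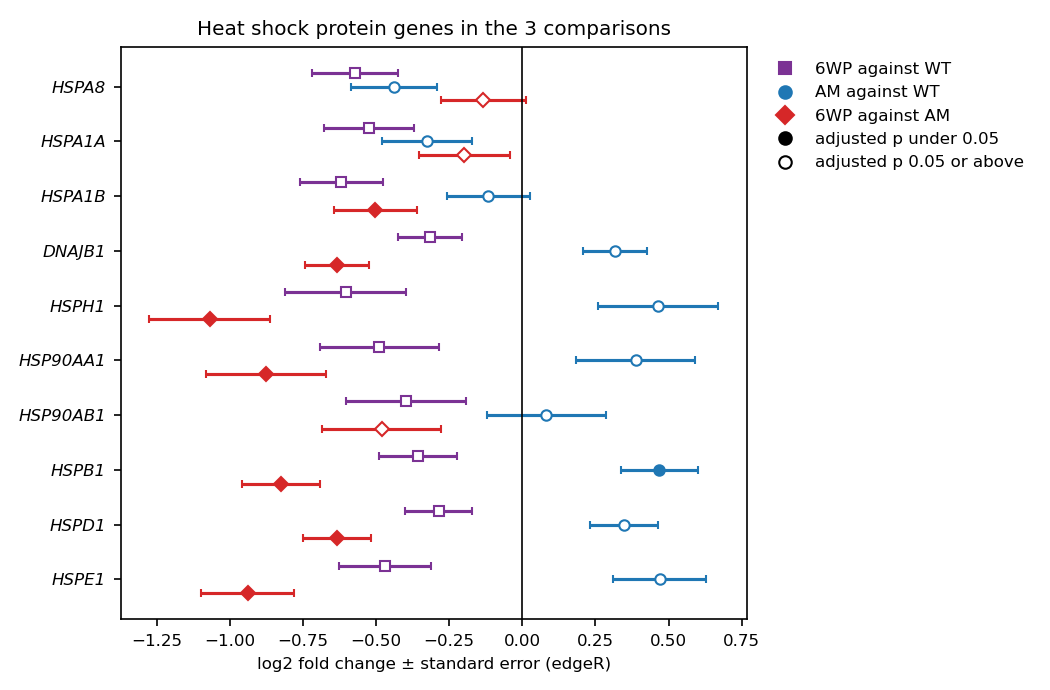
Log2 fold change (horizontal axis) with its standard error (bars) from edgeR for each of the 10 genes in the 3 comparisons, squares for 6WP against WT, circles for AM against WT and diamonds for 6WP against AM. Filled symbols have an adjusted p under 0.05. The diamonds of HSPH1 and HSPE1 lie farthest left, at -1.07 and -0.94, and all 10 squares lie left of 0 and are open.

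HSPA8 encodes the constitutive Hsp70 of the cytosol and lies on chromosome 11 of GRCh38 from 123057489 to 123063230, with 9 exons in the canonical transcript. It had 3564 and 3153 CPM in WT, 2598 and 2357 in AM, and 2013 and 2504 in 6WP libraries. Both kinds of week 6 cells were thus below both WT libraries, and the 6WP and AM libraries overlapped. The log2 fold change was -0.57 (standard error 0.15, edgeR adjusted p = 0.0766) for 6WP against WT and -0.44 (0.15, adjusted p = 0.0735) for AM against WT. Between 6WP and AM cells it was -0.13 (0.15, adjusted p = 0.539). HSPA8 alone among the 10 genes turned sign in that comparison when a library was left out, to 0.013 (adjusted p = 0.940) without 6WP replicate 1.

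HSPA1A and HSPA1B encode the stress-inducible Hsp70 and are near-identical, intron-less genes on chromosome 6 (31815543 to 31817946 and 31827738 to 31830254, 12195 bases apart, both on the plus strand). Of the stretches of 100 bases in the HSPA1A transcript, the length of a read, 72.4% also occurred in HSPA1B, so counts given to either gene are uncertain. HSPA1B had 98.9 and 99.6 CPM in WT, 89.1 and 94.1 in AM, and 55.7 and 73.6 in 6WP libraries. The 6WP libraries were the lowest, and the groups did not overlap. HSPA1B fell against AM by 0.50 on the log2 scale (standard error 0.14, adjusted p = 0.0404), while the change against WT, -0.62 (0.14), had an adjusted p = 0.0604. HSPA1A was far lower, with 13.3 and 12.5 CPM in WT, 10.8 and 9.80 in AM, and 8.64 and 9.34 in 6WP libraries. It did not pass in any comparison. The share of the counts of both genes that was assigned to HSPA1A lay between 9.43% and 13.4% in all libraries. With the counts of both genes added up, the log2 fold change was -0.47 (adjusted p = 0.0426) against AM and -0.61 (adjusted p = 0.0559) against WT. The call of HSPA1B against AM was lost without any of the 4 WT and AM libraries (adjusted p between 0.0913 without WT replicate 2 and 0.212 without AM replicate 2) with upper quartile factors (0.0727) and with only the 2 groups in the fit (0.0928), and its log2 fold change shrank to -0.32 (adjusted p = 0.0157) without 6WP replicate 1.

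DNAJB1 encodes the Hsp40 that delivers clients to cytosolic Hsp70, and lies on chromosome 19 (14514769 to 14560391). Its level was 122 and 121 CPM in WT, 153 and 150 in AM, and 91.1 and 104 in 6WP libraries. The 3 groups were fully separated, with AM highest and 6WP lowest. It fell against AM by 0.63 (standard error 0.11, adjusted p = 0.00887). Against WT the log2 fold change was -0.32 (0.11, adjusted p = 0.146), and AM against WT gave 0.32 (0.11, adjusted p = 0.0790).

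HSPH1 encodes Hsp110, the exchange factor that resets Hsp70, and lies on chromosome 13 (31134973 to 31162388, 18 exons). It had 112 and 101 CPM in WT, 152 and 142 in AM, and 53.3 and 86.9 in 6WP libraries. It showed the largest difference of the 10 genes between 6WP and AM cells, and the 6WP libraries were well apart. It fell against AM by 1.07 (standard error 0.21, adjusted p = 0.0128), that is to 0.477 of the AM level. Leaving out 6WP replicate 1 gave -0.76 and leaving out 6WP replicate 2 gave -1.50. Against WT the log2 fold change was -0.60 (0.21, adjusted p = 0.142), and it was -0.31 (adjusted p = 0.0401) without 6WP replicate 1 and -1.03 (4.81e-06) without 6WP replicate 2.

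The balance of the Hsp70 cofactors to HSPA8 was also read within each library, where scaling cancels. The ratio of DNAJB1 to HSPA8 counts was 0.0342 and 0.0385 in WT, 0.0588 and 0.0638 in AM, and 0.0452 and 0.0417 in 6WP libraries. The ratio of HSPH1 to HSPA8 was 0.0316 and 0.0320 in WT, 0.0586 and 0.0602 in AM, and 0.0265 and 0.0347 in 6WP libraries. Both ratios were highest in the AM libraries. For DNAJB1 the 6WP libraries lay above WT, and for HSPH1 they lay on either side of it. These ratios were not tested, and an exact permutation test of 2 libraries against 2 cannot go below p = 0.333.

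HSP90AA1 encodes the inducible cytosolic Hsp90 and lies on chromosome 14 (102080742 to 102139699). It had 2644 and 2285 CPM in WT, 3230 and 3219 in AM, and 1362 and 2149 in 6WP libraries. The AM libraries were close together and the 6WP libraries were not. It fell against AM by 0.88 (standard error 0.20, adjusted p = 0.0225). The call was lost without WT replicate 1 (adjusted p = 0.0566), without WT replicate 2 (0.0530), without either AM library (0.127 and 0.122) and with only the 2 groups in the fit (0.0578). Against WT the log2 fold change was -0.49 (0.20, adjusted p = 0.207), and it was -0.21 (adjusted p = 0.195) without 6WP replicate 1 and -0.88 (4.65e-05) without 6WP replicate 2.

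HSP90AB1 encodes the constitutive cytosolic Hsp90 and lies on chromosome 6 (44246166 to 44253888). It had 2764 and 2646 CPM in WT, 2817 and 2911 in AM, and 1573 and 2533 in 6WP libraries. The second 6WP library was just below the lower WT library, while the first was far below all others. Its change against AM, -0.48 (standard error 0.20), did not pass (adjusted p = 0.128). It was -0.18 (adjusted p = 0.184) without 6WP replicate 1 and -0.90 (8.34e-06) without 6WP replicate 2, so whether it passed depended on the 6WP library left out. Against WT it was -0.40 (0.20, adjusted p = 0.293), with -0.11 and -0.81 in the same 2 fits. AM against WT gave 0.08 (adjusted p = 0.799), which turned to -0.0092 with upper quartile factors.

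Within each library, the ratio of HSP90AA1 to HSP90AB1 counts was 0.957 and 0.864 in WT, 1.15 and 1.11 in AM, and 0.866 and 0.849 in 6WP libraries. The inducible gene had more counts than the constitutive gene only in AM cells. The 6WP libraries were close to each other in this ratio even though each gene differed between them. Ratios of counts between 2 genes also carry their lengths, so only their change between groups can be read.

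HSPB1 encodes the small heat shock protein Hsp27 and lies on chromosome 7 (76302673 to 76304295, 3 exons). It had 186 and 229 CPM in WT, 280 and 295 in AM, and 174 and 151 in 6WP libraries. It was the only gene of the 10 in which the first 6WP library was the higher. It rose in AM against WT by 0.47 (standard error 0.13, adjusted p = 0.0456) and fell in 6WP against AM by 0.83 (0.13, adjusted p = 0.00728). Against WT the log2 fold change of 6WP was -0.36 (0.13, adjusted p = 0.169). The rise in AM cells was lost without WT replicate 1 (0.33, adjusted p = 0.296), WT replicate 2 (0.65, 0.121), AM replicate 1 (0.50, 0.183) and AM replicate 2 (0.42, 0.276). It was lost too with upper quartile factors (adjusted p = 0.0850), with library totals only (0.0840), with at least 10 counts in every library (0.0526) and with the replicate block (0.0585).

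HSPD1 and HSPE1 encode Hsp60 and Hsp10 of the mitochondrial matrix and lie head to head on chromosome 2 (197486584 to 197516737, minus strand, and 197500140 to 197503449, plus strand). HSPD1 had 1909 and 1755 CPM in WT, 2345 and 2315 in AM, and 1434 and 1571 in 6WP libraries. HSPE1 had 145 and 120 CPM in WT, 171 and 195 in AM, and 83.1 and 108 in 6WP libraries. In both genes AM was highest, 6WP lowest and no group overlapped another. HSPD1 fell against AM by 0.63 (standard error 0.12, adjusted p = 0.0107). HSPE1 fell against AM by 0.94 (0.16, adjusted p = 0.00834). Against WT the changes were -0.29 (0.12, adjusted p = 0.199) for HSPD1 and -0.47 (0.16, adjusted p = 0.137) for HSPE1. The ratio of HSPE1 to HSPD1 counts was 0.0757 and 0.0681 in WT, 0.0728 and 0.0843 in AM, and 0.0580 and 0.0685 in 6WP libraries, so the 6WP and WT libraries overlapped in it. Of the stretches of 100 bases in HSPE1, 31.7% also occurred in other genes, among them HSPE1-MOB4, which was listed at 0 in all 6 libraries, and HSPE1 counts are uncertain to that extent. The shared part was 4.29% in HSPD1.

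Levels were compared between genes only per length, as CPM per kb of the canonical transcript. In WT cells the order was HSPA8 (mean 1483 CPM per kb), HSP90AB1 (1059), HSPD1 (816), HSP90AA1 (763), HSPB1 (267), HSPE1 (237), DNAJB1 (54.3), HSPA1B (39.4), HSPH1 (20.3) and HSPA1A (5.38). HSPD1 and HSP90AA1 overlapped in this order, as did HSPB1 and HSPE1, and the other neighbours were separated. In AM cells HSP90AB1 (1121) came before HSPA8 (1094) and HSPD1 (1038), and the libraries of HSPA8 overlapped those of both. In 6WP cells the order was again that of WT, from HSPA8 (998) to HSPA1A (3.75). There the 4 most abundant genes each overlapped their neighbours. Per kb, DNAJB1 and HSPH1 lay below HSPA8 in every library, whereas DNAJB1 lay above both HSPA1A and HSPA1B in every library as counted. Of the read-length stretches, 72.4% in HSPA1A, 72.8% in HSPA1B and 31.7% in HSPE1 also occurred in other genes, against 0% in DNAJB1. Counts of HSPA1A, HSPA1B and HSPE1 are uncertain to that extent, and so are their places in these orders. Whether DNAJB1 truly exceeded HSPA1A and HSPA1B therefore cannot be decided from these values.

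**Figure D3:**
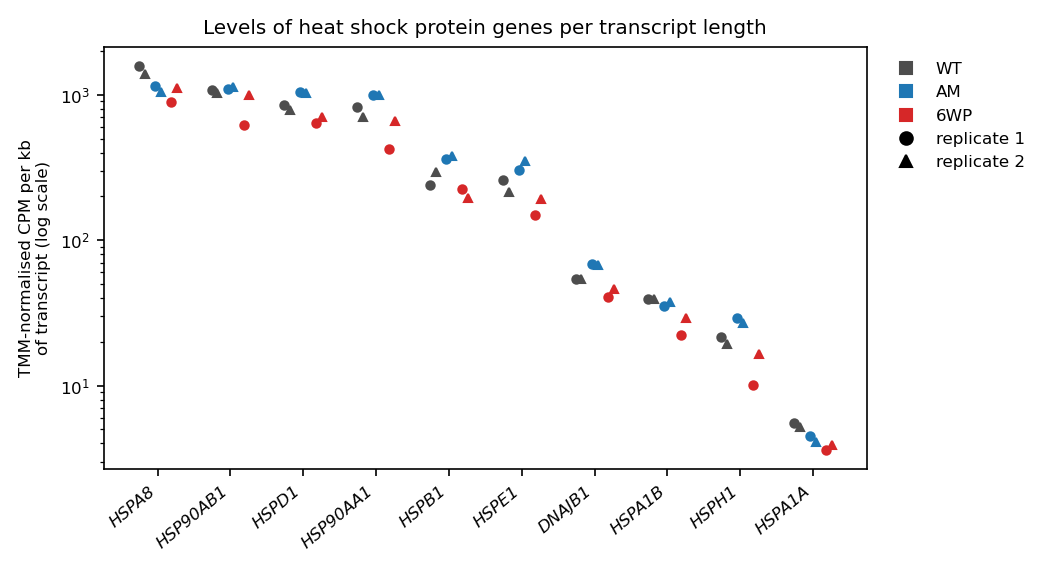
TMM-normalised CPM per kb of canonical transcript (vertical log axis) of the 10 genes, ordered by their WT mean, with grey WT, blue AM and red 6WP libraries, circles for replicate 1 and triangles for replicate 2. The 6 genes at the left lie above 100 CPM per kb in every library, and HSPA1A lies below 10 in every library.

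Across the 6 libraries, the profile of HSPH1 was most like that of HSP90AA1 (Pearson's r of log2 CPM 0.996), and HSPA8 and HSPB1 were least alike (r = 0.019). HSPA8 and HSPA1A had r = 0.966. These values rest on 6 libraries in 3 groups, and a single library can carry much of them. HSP90AB1 had 1573 CPM in 6WP replicate 1 and between 2533 and 2911 CPM in the other libraries. Among 6238 genes with a mean of at least 5 log2 CPM, the genes closest to HSPA8 were C12orf23, ETNK1 and EHBP1 (r from 0.987 to 0.982). Those closest to HSP90AB1 were PRDX6, RPIA and RARS2 (r from 0.994 to 0.993). Those closest to HSPD1 were NDUFA9, TCP1 and MTMR4 (r from 0.997 to 0.996). HSPE1 came at rank 81 for HSPD1, with r = 0.977.

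The other genes of the pathway were read from lists compiled from general knowledge. HSF1, the master factor of the response, had 63.2 and 74.0 CPM in WT, 68.5 and 76.8 in AM, and 84.2 and 86.6 in 6WP libraries. HSF1 transcript levels were thus highest in 6WP cells, with a log2 fold change of 0.32 against WT (adjusted p = 0.184) and 0.23 against AM (adjusted p = 0.203), neither of which passed. HSF2 did not pass in any comparison and had means of 26.9, 26.1 and 24.8 CPM in WT, AM and 6WP cells. HSBP1, whose product binds HSF1, fell against AM by 0.44 (adjusted p = 0.0296). Of the 4 genes of this list that were tested (HSF1, HSF2, HSF4 and HSBP1), no other was called in any comparison. The call of HSBP1 was lost when any of the WT or AM libraries was left out, with upper quartile factors and with only the 2 groups in the fit. In 6WP against WT cells 0 of the 4 passed by edgeR, DESeq2 or the likelihood ratio test, and 1 (HSF1) had an unadjusted p under 0.05. The protein state of HSF1 was not measured.

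Other genes for Hsp70, Hsp110 and their cofactors were partly lower in 6WP than in AM cells, where 9.68% of all genes were called lower. HSPA6, a strictly inducible Hsp70, had 6 and 8 counts in WT, 16 and 29 in AM, and 4 and 4 in 6WP libraries. It passed the filter on low counts only through its AM libraries, where it is high, so its values are given as a description and it is left out of the counts. Of 6 other Hsp70 and Hsp110 genes tested, 3 fell against AM and none rose (median log2 fold change -0.46). HSPA4L, an Hsp110, fell by 1.03 (adjusted p = 0.00954) and HSPA4, also an Hsp110, by 0.43 (adjusted p = 0.0282). HSPA12A fell by 0.97 (adjusted p = 0.0148). Of 16 J-domain genes, which like DNAJB1 stimulate Hsp70, 3 fell and none rose (median -0.08). DNAJB5 fell by 1.15 (adjusted p = 0.00581). DNAJA1 fell by 0.71 (adjusted p = 0.0238), or by 0.47 without 6WP replicate 1 and 1.05 without 6WP replicate 2, and lost its call with only the 2 groups in the fit (adjusted p = 0.0616) and without either WT library. DNAJC13 fell by 0.37 (adjusted p = 0.0392), but kept its call in only 7 of 16 alternatives. Of 9 Hsp70 cochaperone genes, 2 fell, BAG3 by 0.63 (adjusted p = 0.00932) and BAG6 by 0.43 (0.0209), and the median was -0.13. In AM against WT cells, where 7.74% of all genes were called higher, 1 of the 6, 2 of the 16 (DNAJA4 and DNAJB5) and 4 of the 9 (BAG1, BAG3, BAG6 and STUB1) rose. With upper quartile factors or library totals only these numbers were 0, 1 and 1, and with the replicate block 0, 3 and 1. None of the 6, 16 and 9 genes passed edgeR's test in 6WP against WT cells. At an unadjusted p under 0.05, 3 of the 6 were lower, 1 of the 16 was lower and 1 higher, and 1 of the 9 was higher. DESeq2 called 3 of the 6 as lower, as did the likelihood ratio test, which also called 1 of the 9 as higher.

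Of 14 cochaperone genes of Hsp90 tested, 8 fell against AM cells, as HSP90AA1 did, 6 did not pass and none rose, with a median log2 fold change of -0.59. FKBP4, an immunophilin of steroid receptor complexes, had 594 and 589 CPM in WT, 810 and 794 in AM, and 472 and 505 in 6WP libraries, and fell by 0.72 (standard error 0.10, adjusted p = 0.00546). STIP1, which links Hsp70 to Hsp90, fell by 0.60 (adjusted p = 0.00740), PTGES3, the p23 cochaperone, by 0.58 (0.00977), and NUDC by 0.62 (0.0109). These 4 genes rose in AM against WT cells, by 0.44 to 0.54, and were the only 4 of the 14 called there. In 6WP against WT cells 0 of the 14 passed, with 3 lower at an unadjusted p under 0.05 and 1 called by DESeq2 and by the likelihood ratio test. Of 3 other genes tested that carry an HSPB symbol, 2 fell against AM, HSPB8 by 1.33 (adjusted p = 0.00507) and HSPB11 by 0.86 (0.0112). The 3 are grouped by symbol, which does not make each of them a small heat shock protein. HSPB8 rose in AM against WT cells by 0.87 (adjusted p = 0.0190). None of the 3 passed in 6WP against WT cells, with 2 lower and 1 higher at an unadjusted p under 0.05 and 1 called as lower by DESeq2 and by the likelihood ratio test.

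TRiC, the cytosolic relative of Hsp60, and prefoldin, which delivers clients to it, had 14 genes tested. Against AM cells, 7 of them fell, all subunits of TRiC, and PFDN5 of prefoldin rose by 0.44 (adjusted p = 0.0448). PFDN5 was named after its value was seen. TCP1 fell by 0.78 (adjusted p = 0.00605) and CCT2 by 0.71 (0.00805). In AM against WT cells 8 of the 14 rose, with a median log2 fold change of 0.41, and none fell. The number was 1 with upper quartile factors and 4 with library totals only or with the replicate block. None of the 14 passed in 6WP against WT cells by edgeR, DESeq2 or the likelihood ratio test, with 3 higher and 3 lower at an unadjusted p under 0.05. Without either AM library no gene of these cytosolic lists was called in 6WP against AM cells, other than HSPB8 without AM replicate 1 (adjusted p = 0.0476), and without any of the WT or AM libraries no gene of them was called in AM against WT cells. With only the 2 groups in the fit, 2 of the 6 other Hsp70 and Hsp110 genes and 1 of 16 J-domain genes were called lower against AM. So were 1 of 9 Hsp70 cochaperones, 4 of 14 Hsp90 cochaperones, 2 of 3 other HSPB genes and 4 of 14 genes of TRiC and prefoldin. The share of all genes called lower was then 4.44%. In 6WP against WT cells the median log2 fold change of the 14 genes of TRiC and prefoldin was -0.04 without 6WP replicate 1 and -0.31 without 6WP replicate 2.

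Of 16 other mitochondrial chaperone, import motor and protease genes tested, 4 rose in 6WP against WT cells, 12 did not pass and none fell. Of all genes, 1.63% were called higher in that comparison. The median log2 fold change of the 16 was 0.29, where HSPD1 and HSPE1 were at -0.29 and -0.47 and did not pass, and the difference was not tested. In AM against WT cells 3 of the 16 rose, beside 7.74% of all genes called higher. The median was 0.26, where HSPD1 and HSPE1 were at 0.35 and 0.47. The number of 3 became 1 with upper quartile factors, 2 with library totals only and 4 with DESeq2 size factors. HSPA9, the mitochondrial Hsp70, had 549 and 504 CPM in WT, 687 and 721 in AM, and 818 and 754 in 6WP libraries. HSPA9 rose against WT by 0.58 (standard error 0.11, adjusted p = 0.0383) in 6WP and by 0.42 (adjusted p = 0.0368) in AM cells. GRPEL2, the exchange factor of HSPA9, rose in 6WP against WT cells by 0.58 (adjusted p = 0.0437) and TIMM44, which tethers HSPA9 to the import channel, by 0.83 (0.0262). LONP1, a matrix protease, had 100 and 111 CPM in WT, 169 and 193 in AM, and 318 and 183 in 6WP libraries, and rose by 1.24 (standard error 0.23, adjusted p = 0.0358), or by 0.77 without 6WP replicate 1 and 1.56 without 6WP replicate 2. Against AM cells HSPA9, GRPEL2, TIMM44 and LONP1 did not pass, and 1 of the 16, HSCB (named after its value was seen), rose by 0.63 (adjusted p = 0.0271). Among all genes 11.7% were called higher there. All 4 calls against WT were lost when any of the WT or AM libraries was left out (adjusted p between 0.0919 and 0.396) and with only the 2 groups in the fit (between 0.0916 and 0.131). HSPA9 (adjusted p = 0.0509) and GRPEL2 (0.0602) also lost theirs with the replicate block. The median log2 fold change of the 16 against WT cells was 0.19 without 6WP replicate 1 and 0.33 without 6WP replicate 2.

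**Figure D4:**
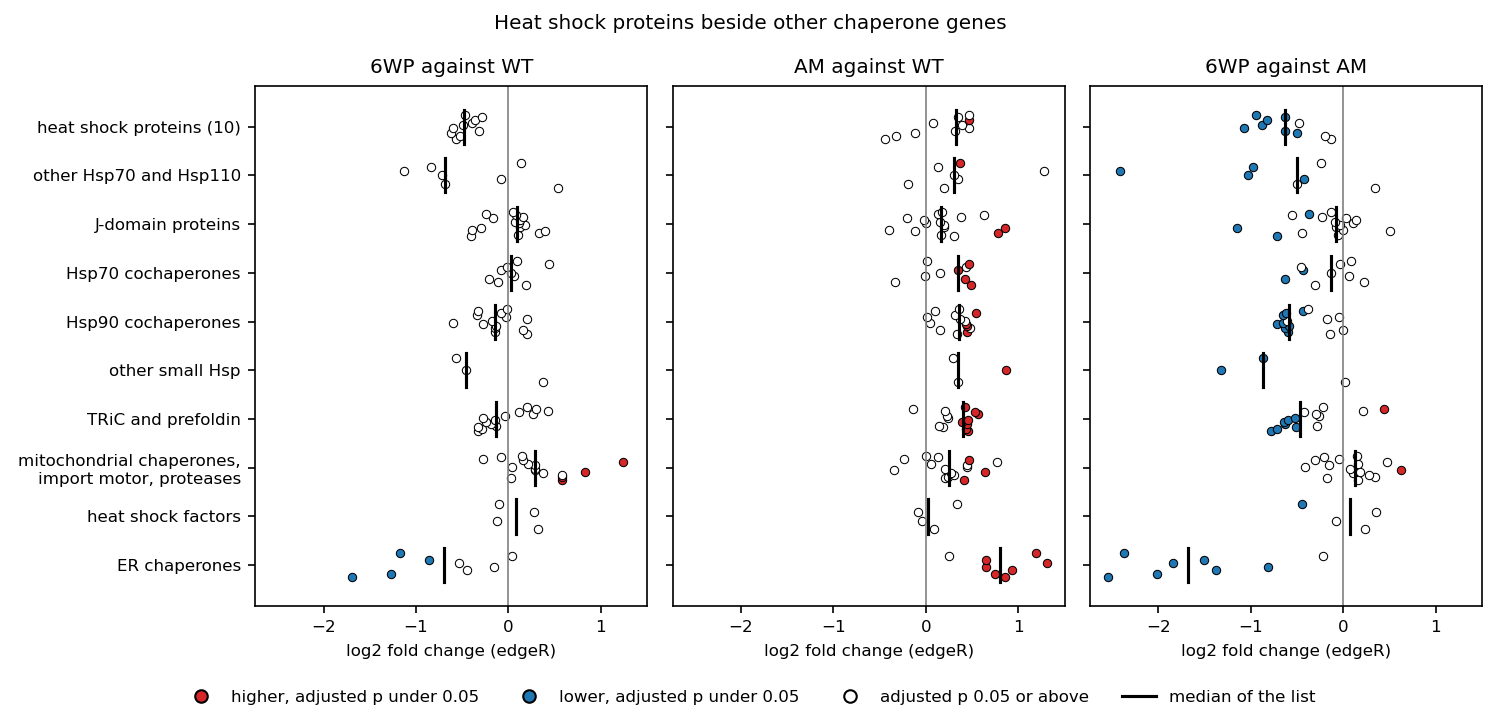
Log2 fold changes from edgeR (horizontal axes) in the 3 comparisons for the 10 genes and for 9 further lists of chaperone genes, with 1 point per gene, filled red or blue where the adjusted p was under 0.05 (higher or lower), and a bar at the median of each list. Against AM cells most lists of cytosolic chaperones have medians below 0, while the mitochondrial list without HSPD1 and HSPE1 has its median at 0.13. The list of other Hsp70 and Hsp110 genes is drawn with HSPA6, which passed the filter only through its AM libraries. With HSPA6 its median is -0.49 in 6WP against AM and -0.69 in 6WP against WT cells, and without HSPA6 -0.46 and -0.38. The list labelled other small Hsp holds the 3 further genes tested that carry an HSPB symbol.

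Chaperones of the endoplasmic reticulum, which are known as targets of the unfolded protein response, were read beside the 10 genes. Of 8 tested, 7 fell in 6WP against AM cells and SIL1, at -0.22, did not pass. In that comparison 9.68% of all genes were called lower. The median log2 fold change of the 8 was -1.68, beside -0.63 in the 10 heat shock protein genes. HSPA5, the Hsp70 of the endoplasmic reticulum, fell against AM by 2.54 (adjusted p = 0.000177) and HSP90B1, the Hsp90 there, by 2.02 (0.00164), beside -0.13 for HSPA8 and -0.48 for HSP90AB1 in the cytosol. In 6WP against WT cells 4 of the 8 fell, HSPA5 and HSP90B1 among them, where none of the 10 was called. The number of 4 dropped to 2 with only the 2 groups in the fit, where 0.248% of all genes were called lower. It also dropped when any WT or AM library was left out, as did the share of all genes called. The difference between the lists was not tested.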

How the data were processed

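RNA from 22Rv1 cells was sequenced as single end reads of 100 bp after a stranded library preparation. According to the submitters' processing notes, STAR 2.5.3a, StringTie 1.3.3, featureCounts 1.5.3 and edgeR 3.22.3 were used with hg38. The strand setting and the gene annotation are not given in the sources used here. The deposited values are raw counts for each gene symbol in 6 libraries, and 0 columns were left out. Total counts were 21222201 to 35311945, so a floor of 3 counts equals 0.0850 to 0.141 CPM, which covers counting error only.

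Analysis was performed in R 4.3.3. Genes were kept with filterByExpr of edgeR 4.0.16, TMM factors were computed, and all 6 libraries entered a quasi-likelihood model with the group as its only term. The 3 comparisons were tested with glmQLFTest (two-sided), with Benjamini-Hochberg adjustment over 14672 genes and a threshold of 0.05. Standard errors were obtained from the log2 fold change and the F statistic. Log2 CPM for correlations used a prior count of 2. Promoter letters were read from RefSeq (GRCh38.p14) and gene positions from GENCODE 44 (GRCh38). The test was tried on simulated data beforehand.

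The members and the gene lists were chosen with earlier results of these data known. Named were all members, up to 4 called genes with the smallest p from each list, HSF1 and HSF2, HSPA5 and HSP90B1, and the 3 genes most like HSPA8, HSP90AB1 and HSPD1. Alternatives were other scaling factors (DESeq2 1.42.0 size factors, upper quartile, library totals), other filters, DESeq2's Wald test, the likelihood ratio test, only the groups compared, a replicate block, HSPA1A and HSPA1B summed, and each library left out. Those for the lists, and the omission of HSPA6 from its list, were chosen after seeing the data.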

Additional observations from a re-analysis of the deposited data

How the results depend on the processing

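In 6WP against WT cells, 0 of the 10 genes were called, and the number became 1 with library totals only, 2 with no filter beyond 1 count, 2 with DESeq2's Wald test and 3 with the likelihood ratio test, and 0 to 9 when each library was left out in turn. In AM against WT cells, 1 was called, and the number became 4 with no filter beyond 1 count, 0 with at least 10 counts in every library, 4 with DESeq2's Wald test, 3 with the likelihood ratio test, 7 with only the groups compared and 0 with the replicate block, and 0 to 8 with each library left out. With upper quartile factors or library totals only, the gene called there was HSPA8 (lower) and not HSPB1. In 6WP against AM cells, 7 were called, and the other settings gave 5 to 7, and 0 to 9 with each library left out. Leaving out a WT or AM library also cut the share of all genes called in each comparison. Calls lost in those fits are therefore not particular to the 10 genes or to any list.

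Upper quartile factors shifted the median log2 fold change of all genes from 0.05 to 0.14 in 6WP against AM and from close to 0 to -0.09 in AM against WT. With them HSP90AB1 turned to -0.0092 (adjusted p = 0.979) and HSF1 to -0.0089 in AM against WT, and HSF2 to 0.017 in 6WP against AM. With each library left out in turn, 4 log2 fold changes crossed 0. HSPA8 in 6WP against AM ran from -0.33 to 0.013 (without 6WP replicate 1), HSF1 in AM against WT from -0.020 to 0.22, HSF2 in AM against WT from -0.21 to 0.076, and HSF2 in 6WP against AM from -0.21 to 0.076. None of these values had passed the test, and the cause was not tested.

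The labels number the replicates 1 and 2 in every group. Libraries with the same number deviated from their group means with correlations across genes of 0.0395 (WT and AM), 0.0873 (WT and 6WP) and -0.0206 (AM and 6WP). These low values show no strong deviation shared by number, but they cannot tell whether the cultures were paired. The replicate block gave 0, 0 and 7 calls in 6WP against WT, AM against WT and 6WP against AM cells.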
